A study of Mus musculus with 4 samples.

Results

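P-selectin and 9 other genes of the platelet surface and its granules were followed in mouse stem and progenitor cells labelled as a knockout of Ncstn, the nicastrin gene. The list held Selp, Itga2b, Itgb3, Vwf, Pf4, Ppbp, Gp9, Gp1bb, Gp5 and Gp1ba, and every probe set whose annotated symbol was one of them was taken. This gave 14 probe sets of 45101 and 9 measured genes of 18193, with Gp1ba not analysed here. The main value of a gene was its probe set of highest mean log2 intensity over the arrays. Selp had the smallest p of all genes for Ncstn KO against WT, and this value chose it. The differences between the genotypes below are therefore descriptions for all 9 genes, and no support is taken from them.

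Lineage-negative, cKit-positive, Sca1-positive (LSK) bone marrow cells, which include the hematopoietic stem cells, were sorted from littermates at 6 weeks of age and their RNA was hybridized to Affymetrix arrays. WT mice were Ncstn flox/flox without a cre transgene, and Ncstn KO mice were Ncstn flox/flox Mx1-cre+, a transgene whose interferon-inducible promoter is active in blood cells and in other interferon-responsive cells. All mice had received 3 injections of polyIC (20 µg per g body weight), an interferon inducer, from 14 days of age and were analysed 4 weeks later, so that interferon induction was shared and the transgene was not. Each group held 2 arrays: WT replicate 1 and Ncstn KO replicate 2 came from males, and WT replicate 2 and Ncstn KO replicate 1 from females.

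Platelets are shed by megakaryocytes and carry on their surface the receptors that hold them to a damaged vessel wall. The GPIb-IX-V complex binds von Willebrand factor, the integrin of the Itga2b and Itgb3 chains binds fibrinogen, and P-selectin, stored in alpha granules, moves to the surface on activation and binds white cells. Part of the stem cell pool already transcribes some of these genes, among them Itga2b, Vwf and Selp, and stem cells biased towards platelets and those of old mice are known for it.

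Selp and Itga2b had the largest positive differences, and of the measured genes only Ppbp lay lower in Ncstn KO. The lower mean of Ppbp rested on WT replicate 2, with a difference of 0.13 without that array. Whether promoter letters bear on these differences was not tested. The promoters of these genes, picked by the differences, are printed below. Each is the RefSeq window of 300 bases on GRCm38.p6, from before to just after the annotated start of the gene, read 5′ to 3′ on the strand of the gene. The capitals mark matches to a core of the ETS factors (AGGAAG or CGGAAG, on either strand). The windows lie at chr1:164115014-164115313 on the plus strand for Selp, chr11:102469834-102470133 on the minus strand for Itga2b and chr5:90768268-90768567 on the plus strand for Ppbp.
Selp: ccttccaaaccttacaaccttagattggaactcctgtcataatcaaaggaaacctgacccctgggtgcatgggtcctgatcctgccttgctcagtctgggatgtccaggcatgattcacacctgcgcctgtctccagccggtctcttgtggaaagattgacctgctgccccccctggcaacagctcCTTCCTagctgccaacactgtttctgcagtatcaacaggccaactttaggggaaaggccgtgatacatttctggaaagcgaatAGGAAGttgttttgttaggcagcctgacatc
Itga2b: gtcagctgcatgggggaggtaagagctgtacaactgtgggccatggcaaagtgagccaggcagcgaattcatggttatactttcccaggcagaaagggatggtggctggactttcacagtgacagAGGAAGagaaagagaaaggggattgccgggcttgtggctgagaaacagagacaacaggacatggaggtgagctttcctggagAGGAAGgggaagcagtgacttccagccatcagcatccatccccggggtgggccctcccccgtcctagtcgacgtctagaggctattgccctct
Ppbp: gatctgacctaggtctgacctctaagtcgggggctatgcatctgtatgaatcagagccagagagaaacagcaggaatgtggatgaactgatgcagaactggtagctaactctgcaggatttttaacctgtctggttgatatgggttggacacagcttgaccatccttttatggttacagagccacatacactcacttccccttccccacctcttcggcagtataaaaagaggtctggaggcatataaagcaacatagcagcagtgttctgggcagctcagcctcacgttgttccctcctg

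Of the 10 genes 8 had a promoter in the RefSeq table, and Itgb3 and Vwf had none there. ETS cores stood in 7 of the 8 windows, against 46.5% of 32851 promoter windows of the same length. Selp held one on the minus strand at positions 187 to 192 of the window, counted from 1 at its 5′ end, and one on the plus strand at 270 to 275. Itga2b held ETS cores on the plus strand at 126 to 131 and 208 to 213. Ppbp held neither AGGAAG nor CGGAAG on either strand. Its window does hold the shorter letters GGAA, as in aggaat, and such shorter cores were not searched for. The GATA letters, TGATAA together with TGATAG and likewise AGATAA together with AGATAG, on either strand, stood in 4 of the 8 windows (Pf4, Gp1bb, Gp5 and Gp1ba) and in 29.8% of all. They stood in none of the 3 windows printed. No GATA match overlapped an ETS core. The RUNX letters TGTGGT, on either strand, stood in 1 of the 8, Gp9, and in 16.8% of all. These are matches of letters and were not tested as binding sites.

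The targeted gene Ncstn had log2 intensities of 9.05 and 8.98 on the WT arrays and 7.58 and 7.91 on the Ncstn KO arrays. Ncstn KO minus WT was -1.27 (SE 0.22), and -0.80 (SE 0.29) with the Ncstn probe sets averaged. The arrays had median intensities of 71.6 to 79.2. Kit, one of the markers of the sort, and Cd34, a marker of early progenitors, were bright on all arrays, at 11.57 to 11.94 and 12.77 to 12.81, while Ly6a, which encodes Sca1, was not analysed here. The mature neutrophil genes S100a8 and S100a9 were bright too, at 13.24 to 13.62 and 13.80 to 13.92, although the sort should exclude neutrophils. The female arrays differed from the male arrays in 4 genes at an adjusted p under 0.05 (0.022% of genes), among them the Y-linked Eif2s3y, Kdm5d and Uty, each lower in females as their labels require. Values below are log2 intensities, WT replicate 1 and 2 first, and each difference is Ncstn KO minus WT, n = 2 per group, followed by its standard error (SE) in a limma fit over all genes. In RNA from a sorted population, fewer cells of a kind and less RNA per cell cannot be told apart.

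Selp was far higher on both Ncstn KO arrays. Its values were 9.75 and 9.62 in WT and 11.58 and 11.65 in Ncstn KO, or means of 9.68 ± 0.086 (SD, n = 2) and 11.62 ± 0.055 (SD, n = 2). On the linear scale, intensities of 858 and 789 stood against 3053 and 3224, so that the replicates lay close together and the groups far apart. The difference was 1.93, or 3.81-fold, and it was nearly the same in females (1.95) and males (1.91). The 2 other Selp probe sets gave 2.20 (4.59-fold) and 1.71 (3.28-fold), and in each of the 3 both Ncstn KO arrays lay above both WT arrays.

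The integrin chains followed Selp in direction at a smaller size. Itga2b, which encodes the platelet integrin alpha chain CD41, had values of 7.56 and 8.02 in WT and 9.28 and 8.97 in Ncstn KO, with no overlap. Its difference was 1.33 (SE 0.25), or 2.52-fold. Itgb3, the beta chain that pairs with it, stood at 9.30 and 9.09 in WT and 10.17 and 10.05 in Ncstn KO, and its groups did not overlap. The difference of 0.91 (SE 0.17) was 1.88-fold. Its second, dimmer probe set disagreed between the sexes, with 1.33 in females and -0.48 in males.

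The genes of the GPIb-IX-V complex lay higher in Ncstn KO by less than 2-fold, and only for Gp9 were the groups apart. Gp9, which encodes the small subunit GPIX, had values of 8.73 and 9.11 in WT and 9.36 and 9.60 in Ncstn KO. Its difference was 0.56 (SE 0.21), beside an SD of 0.27 between the WT arrays. Gp5, which encodes GPV, stood at 6.84 and 7.60 in WT and 8.61 and 7.59 in Ncstn KO. Here the female Ncstn KO array was high and the male one level with the female WT array, and the difference was 0.88 (SE 0.42), or 0.37 without that female array. Gp1bb, the GPIb beta chain gene, had values of 5.87 and 7.11 in WT and 7.76 and 6.33 in Ncstn KO, which overlapped (difference 0.56, SE 0.59). A second Gp1bb probe set gave 0.49, and one shared with Septin5, a gene next to it, gave 0.25, both with overlapping groups. The sign of Gp1bb depended on the array: its difference was -0.068 when WT replicate 1 was left out and -0.16 when Ncstn KO replicate 1 was.

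**Figure D1:**
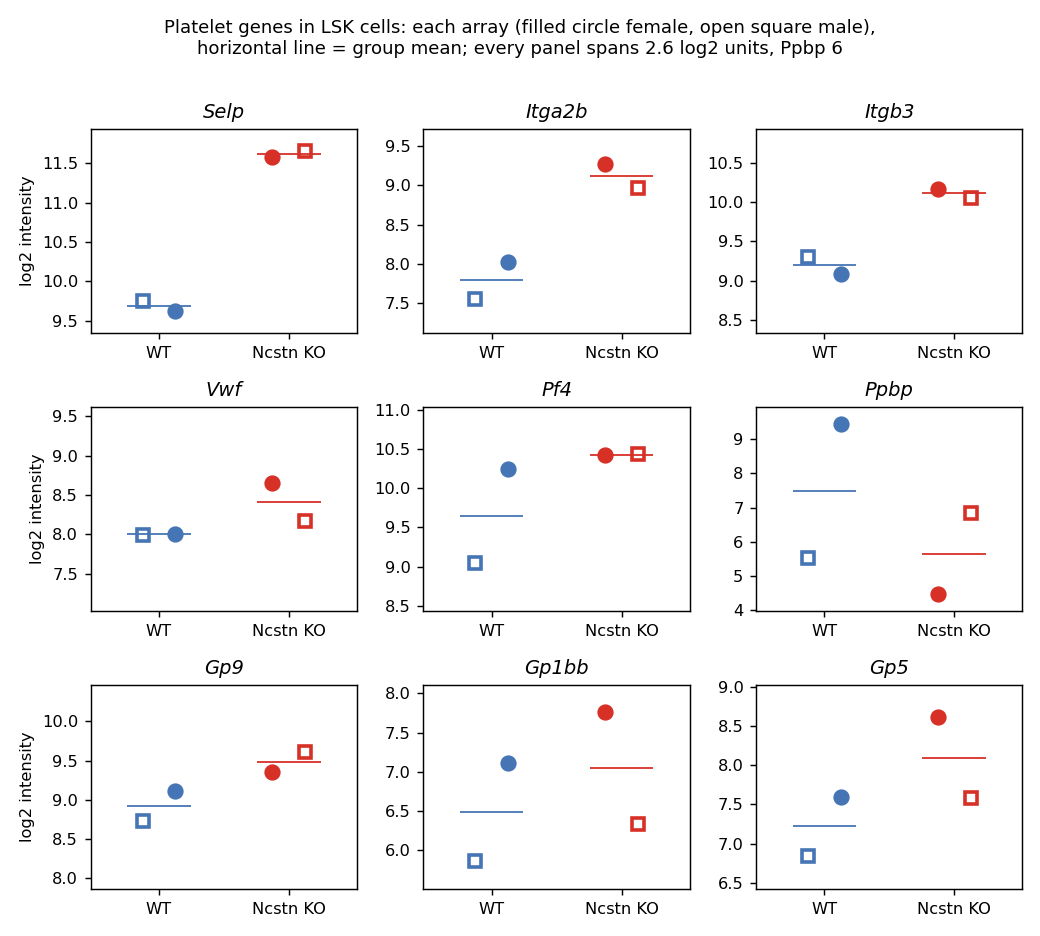
Log2 intensity of the 9 measured platelet genes on each array, by genotype, with circles for females, squares for males and lines for the means of 2 arrays. Selp and Itgb3 separate the genotypes with little spread and Itga2b with more (SD 0.33 in WT and 0.22 in Ncstn KO). Ppbp spans 4.46 to 9.46 and has its highest value in the WT female.

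The granule proteins did not share 1 pattern. Vwf, the plasma and platelet adhesion protein, had values of 7.99 and 8.01 in WT and 8.66 and 8.17 in Ncstn KO. The WT arrays were almost equal, and the difference of 0.42 (SE 0.24) came mainly from the female Ncstn KO array, being 0.18 without it. Pf4, the chemokine platelet factor 4, stood at 9.04 and 10.24 in WT and 10.42 and 10.43 in Ncstn KO. Its difference of 0.78 (SE 0.37) rested on the low WT replicate 1: it was 0.18 without that array and 1.38 without WT replicate 2.

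Ppbp, which encodes the precursor of several platelet chemokines and lies beside Pf4 on chromosome 5, went the other way. Its values were 5.52 and 9.46 in WT and 4.46 and 6.84 in Ncstn KO, so both groups spread over more than the difference between them (-1.84, SE 1.34). On the linear scale the WT female had an intensity of 704.6 and the other arrays 22.0 to 114. In females the difference was -5.00 and in males 1.32, and without WT replicate 2 it was 0.13.

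**Figure D2:**
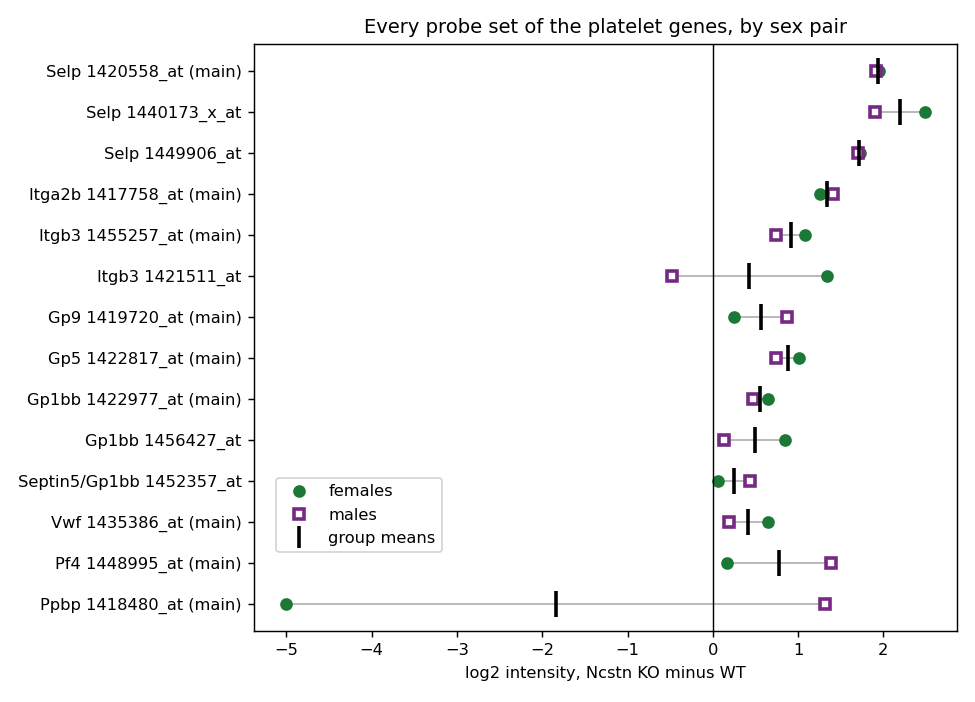
Ncstn KO minus WT (log2) for all 14 probe sets, as females (circle), males (square) and group means (bar), grouped by gene. The 3 Selp probe sets lie between 1.71 and 2.20 in their means, while the Ppbp sexes lie on opposite sides of 0.

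Over the list, 8 of 9 genes lay above WT in the means, and the same 8 did so in both sexes. Of all genes 55.8% lay above WT and 32.3% in both sexes. The groups did not overlap, with both Ncstn KO arrays above, for 6 of the 9 genes and for 21.3% of all genes. A difference of at least 2-fold upward was seen for 2 of the 9 and 1.26% of all genes. The median difference was 0.78 over the 9 genes, 0.67 over the 8 without Selp and 0.025 over all genes. It depended on the WT arrays, being 0.41 without WT replicate 1 and 1.18 without WT replicate 2. No gene of the list passed an adjusted p of 0.05 in limma, nor did any of the 18193 genes (0%), and 4 of the 9 (Selp, Itgb3, Itga2b and Gp9) had an unadjusted p under 0.05 upward, as 4.96% of all genes did. The limma adjusted p of the 8 genes other than Selp ran from 0.290 for Itgb3 to 0.969 for Gp1bb. Because the same contrast chose the list, nothing is read from these counts. Scaling the arrays to the hybridization controls, which were brighter in Ncstn KO by 0.195, moved the median of all genes to -0.17, that of the platelet genes to 0.58 and the genes without overlap to 4 of 9 (6.73% of all genes).

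The comparison of females with males was not used to choose the genes, and none of the 9 passed it (limma, adjusted over all genes; 2 had an unadjusted p under 0.05, as 8.58% of all genes did). Gp1bb was higher in females by 1.33 (SE 0.22, limma adjusted p = 0.574), at 7.43 against 6.10, and Gp5 by 0.89 (SE 0.21, limma adjusted p = 0.574), at 8.10 against 7.22. In both genes both female arrays lay above both male arrays, as they did for 29% of all genes. The other differences ran from -0.10 for Selp to 0.78 (SE 1.50) for Ppbp. Selp, Itgb3 (-0.045) and Gp9 (0.070) had the smallest.

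The lists of other platelet genes had smaller medians. Of 22 other receptors and membrane proteins 15 lay above WT (median 0.14), of 13 other granule and secreted proteins 8 (median 0.12), and of 14 genes of signalling, cytoskeleton and eicosanoid synthesis 8 (median 0.021), where 55.8% of all genes lay above WT with a median of 0.025. None passed in limma over all genes, with 6 upward and 1 downward at an unadjusted p under 0.05 (4.96% and 1.84% of all genes). The upward ones were P2rx1, an ATP-gated channel (0.85, SE 0.24), F5, coagulation factor V (0.82, SE 0.15), Tbxa2r, the thromboxane receptor (0.63, SE 0.24), Plek, pleckstrin (0.52, SE 0.17), Sparc (0.50, SE 0.16) and Fermt3, the kindlin that activates platelet integrins (0.31, SE 0.10). With the probe sets of each gene averaged, Fermt3 fell to 0.16 (SE 0.13), P2rx1 to 0.59 and Plek to 0.37. Tbxa2r stayed at 0.63, and F5 (0.93) and Sparc (0.53) rose slightly. F2r, a thrombin receptor, had 0.25 (SE 0.12) and Tbxas1, thromboxane synthase, 0.28 (SE 0.16). The downward one was Mmrn1, which encodes an alpha granule protein that binds factor V. It stood at 9.60 and 9.14 in WT and 7.79 and 7.87 in Ncstn KO, a difference of -1.54 (SE 0.23), opposite to F5.

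Ppbp was not alone in its profile. Singled out after their values were seen, 6 of the 58 measured platelet genes lay at least 1 log2 unit above the mean of the other arrays on WT replicate 2, as 0.511% of all genes did. Besides Ppbp they were Clec1b, the podoplanin receptor CLEC-2, Tubb1, the beta tubulin of the platelet ring, Myl9, a myosin light chain, Thbs1, thrombospondin, and Alox12, a lipoxygenase. Clec1b had values of 4.47 and 8.24 in WT and 4.93 and 6.24 in Ncstn KO. Tubb1 had 6.54 and 9.10 in WT and 7.26 and 6.68 in Ncstn KO. In both the female WT array stood above all others. Selp was slightly lower on that array than on WT replicate 1 (9.62 against 9.75), as was Itgb3 (9.09 against 9.30). Itga2b (8.02 against 7.56), Gp9 (9.11 against 8.73), Pf4 (10.24 against 9.04), Gp5 (7.60 against 6.84) and Gp1bb (7.11 against 5.87) were higher there. Vwf was nearly level (8.01 against 7.99). Without the female WT array, the differences were 1.11 for Clec1b, 0.43 for Tubb1, 0.55 for Alox12, 0.037 for Myl9 and -0.28 for Thbs1. With it they were -0.78, -0.85, -0.30, -0.96 and -1.09, in the same order. WT replicate 1 lay at least 1 log2 unit below the mean of the others for 10 of the 58 genes (0.863% of all genes), among them Pf4, Gp5 and Gp1bb. Ppbp (-1.40), Clec1b (-1.99) and Tubb1 (-1.14) are among the 10 too, but their high value on WT replicate 2 raises the mean of the others. Selp and Itga2b are also among the 10, but there the offset holds the difference between the genotypes, and Selp was lower still on WT replicate 2. The female Ncstn KO array lay as far above the others for 5 genes (1.29% of all genes). They were Gp1bb, Gp5 and the scavenger receptor gene Cd36, and again Selp and Itga2b, of which Selp was higher still on the male Ncstn KO array. What moved with WT replicate 2 in the 6 genes above was not tested.

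**Figure D3:**
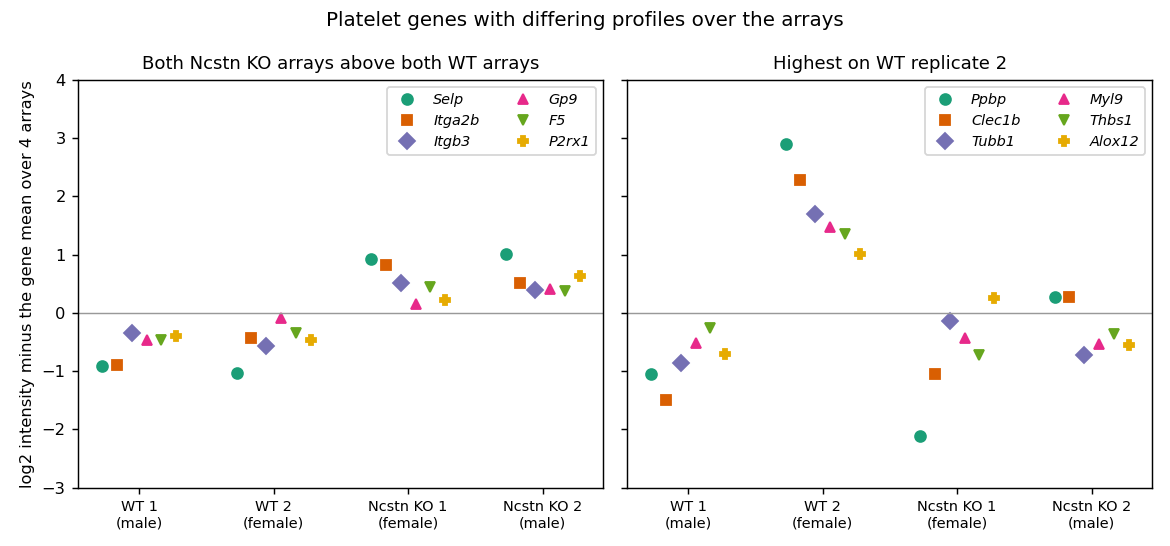
Log2 intensity of 12 platelet genes on each array after subtracting the mean of the gene over the 4 arrays, one symbol per gene. The genes on the left, picked for this pattern, lie above 0 on both Ncstn KO arrays and below 0 on both WT arrays. Those on the right, also picked by pattern, have their highest value on the female WT array. Pf4 and Vwf, not drawn, also had both Ncstn KO arrays above both WT arrays. After subtracting the gene mean, Pf4 lay above 0 on WT replicate 2 and Vwf below 0 on Ncstn KO replicate 2.

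Among genes brighter than the median of all genes, the 5 whose centred profile over the 4 arrays lay nearest to that of Selp were Gda (Euclidean distance 0.24), Lgals3 (0.42), Gimap3 (0.47), Ecm1 (0.48) and AB124611 (0.49). The differences were 1.76 for Gda, the guanine deaminase gene, 1.55 for Lgals3, the galectin-3 gene, 1.81 for Gimap3, 1.47 for Ecm1 and 1.44 for AB124611. Of the platelet genes Itga2b (0.77) and Itgb3 (1.03) were nearest, while 59 and 166 other genes of all levels were nearer to Selp than they were. Ppbp, at 5.01, was farther from Selp than 18183 of the other genes. With 4 arrays and 2 groups, such nearness mostly restates the difference between the genotypes.

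The partners of P-selectin and the regulators of the megakaryocyte lineage differed less. Selplg, the main P-selectin ligand on white cells, stood at 11.52 and 11.63 in WT and 11.87 and 11.91 in Ncstn KO (0.31, SE 0.09). Gcnt1, an enzyme that builds the sugar which P-selectin recognizes, had a difference of 0.28 (SE 0.10) and the sialyltransferase gene St3gal6 of -0.63 (SE 0.27). With their probe sets averaged, the differences were 0.13 (SE 0.13) for Gcnt1 and -0.25 (SE 0.24) for St3gal6. Over 15 selectin and ligand genes 11 lay above WT, with a median of 0.067 and 0 past the limma threshold. Of all genes 55.8% lay above WT, with a median of 0.025. Of 11 transcription factors of megakaryocytes 9 lay above WT (median 0.18) and 0 passed. Among them Gfi1b had 0.66 (SE 0.24), Gata2 0.31 (SE 0.07), Gata1 0.27 (SE 0.38, and -0.31 without Ncstn KO replicate 1) and Mef2c -0.20 (SE 0.10).

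Genes known from aged or platelet-biased stem cells, a list put together with some of their values known, are given beside these without support being taken from them. Of 16 measured, 13 were above WT (55.8% of all genes) with a median of 0.65, and 0 passed in limma over all genes. An unadjusted p under 0.05 was found for 7 upward and 1 downward (4.96% and 1.84% of all genes). Sult1a1, a sulfotransferase gene, stood at 6.71 and 6.97 in WT and 9.20 and 8.59 in Ncstn KO (2.05, SE 0.28). Clca3a1 had a difference of 1.62 (SE 0.29), Mt1, a metallothionein gene, of 1.53 (SE 0.35) and Slamf1, which encodes the stem cell marker CD150, of 0.83 (SE 0.28). The downward one was Neo1, a netrin receptor gene, at -1.06 (SE 0.27), with no overlap between the genotypes.

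Endothelial cells also make P-selectin and von Willebrand factor. Of 16 endothelial markers 8 lay above and 8 below WT, with a median of -0.023, where 55.8% of all genes lay above. Their summed intensity was 10363 to 10416 in WT and 8763 to 9766 in Ncstn KO. The lowest intensity of any probe set was 3.32 to 3.79 per array, so a value above 0 does not show that a marker was present. Of the 16 markers 7 had a mean under the median of all genes (8.04), although levels of different probe sets are not directly comparable. Cdh5 (3.73 to 4.02), Sele (3.75 to 3.99) and Kdr (5.18 to 5.31) were among these 7, whereas Icam2 (10.56 to 11.12), Egfl7 (10.84 to 11.23), Eng (10.27 to 10.46), Tie1 (9.76 to 9.94) and Robo4 (9.48 to 10.30) were among the brighter ones. The brighter ones named carried most of the summed intensity, which therefore says little about the dimmer markers. Whether the RNA of the brighter ones came from endothelial cells was not tested. Nor was the part of endothelial RNA in the platelet gene differences. Emcn, an endothelial and stem cell sialomucin, had a difference of -1.40 (SE 0.18) and Icam2 of -0.45 (SE 0.13), while Pecam1 had one of 0.48 (SE 0.20). None of them passed.

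No marker of another blood lineage passed in limma, and of all genes 55.8% lay above WT, with a median of 0.025. All 11 genes listed as mature myeloid markers, not all of them limited to mature cells, lay above WT (median 0.36). Of these, 5 had an unadjusted p under 0.05 in limma (4.96% of all genes upward). These 5 were Ccr2 (1.50, SE 0.24), Elane (1.19, SE 0.11), Cd14 (1.10, SE 0.25), Itgam (1.07, SE 0.36) and Csf1r (0.75, SE 0.16). The rest of the list, S100a9, Lyz2, Ngp, S100a8, Camp and Ltf, had 0.010 to 0.36 with overlapping groups. The summed intensity of the 11 genes was 58726 and 48984 in WT and 54477 and 70204 in Ncstn KO, higher on the male array of each group. Both female arrays lay below both male arrays for 6 of the 11, as for 2088 of 18193 genes. S100a8, S100a9, Camp and Lyz2 made up most of these sums, and Itgam, at 4.05 to 5.77, was the dimmest. Of 10 erythroid markers 8 lay above WT (median 0.20; 2 upward and 1 downward at an unadjusted p under 0.05), with sums of 17641 to 18634 and 19192 to 21984. Rhag had 1.04 (SE 0.33), Car1 0.86 (SE 0.26) and Alas2 -1.30 (SE 0.36), and the dimmest was Hba-a1, at 3.04 to 3.20. Of 9 lymphoid markers 6 lay below WT (median -0.21; 2 downward at an unadjusted p under 0.05, as 1.84% of all genes). Ms4a1 had -2.12 (SE 0.24), Gzma -2.13 (SE 0.70) and Cd4 0.59 (SE 0.28). Their sums were 7884 to 7943 and 7434 to 7512, and Pax5 was the dimmest at 3.80 to 4.44. Nkg7, at 12.65 to 12.75, made up most of these sums, which therefore say little about the other lymphoid markers. Since no probe set of these arrays was at 0, values above 0 do not show that a marker was present. The part of these cells in the platelet gene differences was not tested. Of 9 markers of the LSK fraction 4 lay above WT (median -0.033), with sums of 40997 to 43846 in WT and 41573 to 43454 in Ncstn KO. Cd48 had a difference of -0.098 (SE 0.066) and Cd27, a tumor necrosis factor receptor family gene, of -0.11 (SE 0.075), beside the 0.83 of Slamf1.

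**Figure D4:**
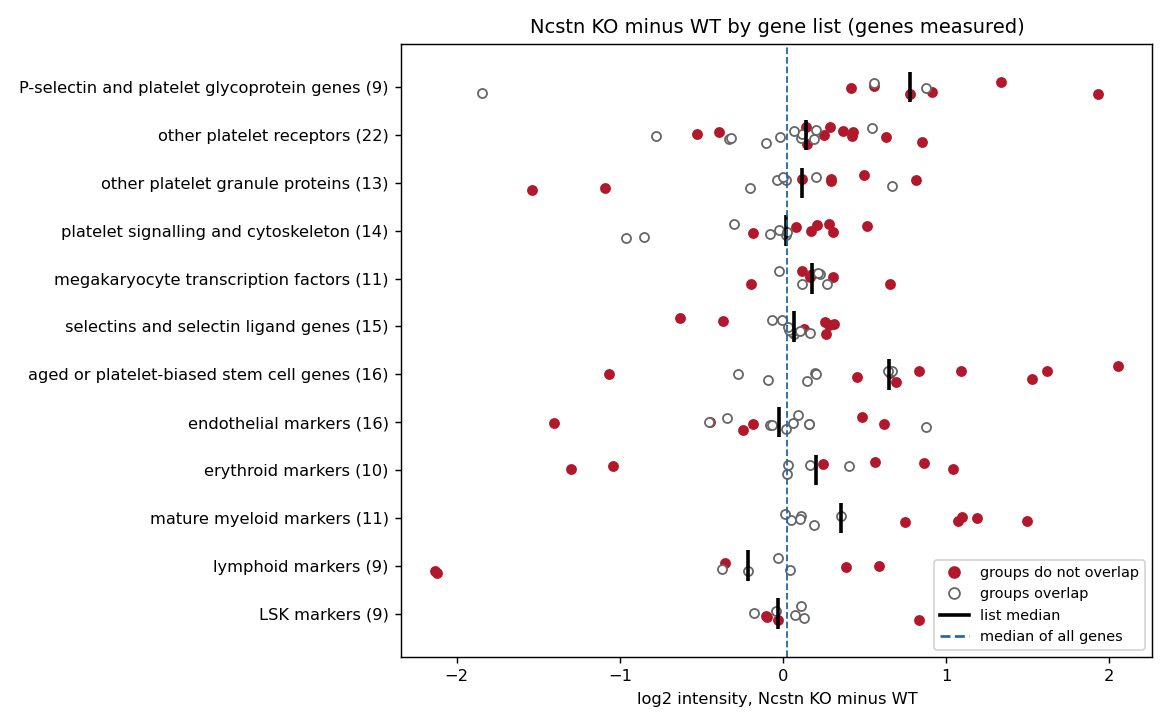
Ncstn KO minus WT (log2) of every measured gene by list, filled where the arrays of the genotypes do not overlap, with the list median as a bar and the median of all genes dashed. The P-selectin and platelet glycoprotein genes have a median of 0.78 with Ppbp far to the left, and the 3 lists of other platelet genes have medians of 0.021 to 0.14.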

How the data were processed

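The authors deposited 1 linear intensity per probe set and array, computed with RMA per the submitters' processing notes. No source used here states its software or version. RNA (5 ng) was amplified with the NuGEN Ovation system, per the labels' protocols. Log2 was taken and no scaling added. Genes were named from GEO's platform annotation of 2016, where 34945 probe sets named 1 gene, and 64 control probe sets were left out. The Entrez identifiers of the 9 measured genes matched RefSeq symbols of GRCm38.p6.

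Differences were fitted on 18193 genes with limma 3.58.1 in R 4.3.3 (two-sided moderated test with a trended variance, adjusted after Benjamini and Hochberg, threshold 0.05): genotype alone, or genotype and sex for females against males. The fits were also run on simulated data drawn with independent normal noise and no deviating arrays. That run therefore says nothing about arrays that stand apart, such as WT replicate 2. For 2 against 2 arrays the smallest p of an exact permutation test, two-sided, is 0.333, and the number of arrays limits every value; p-values measure the spread between these mice only. Signal over background was not assessed.

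The platelet genes and the 12 other lists were chosen with earlier results of these data known. Named were all 9 measured genes, the 3 smallest p of each list except the housekeeping genes, which were not used, and the 5 nearest profiles to Selp; Clec1b, Tubb1, Myl9, Thbs1, Alox12, Cd36 and Neo1 were named after their values were seen, and other markers by their defining role. Replicate numbers are not stated to pair mice. Figures were drawn with matplotlib 3.10.9.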

Additional observations from a re-analysis of the deposited data

Results flagged for a closer look

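Ppbp was marked for a second look because its difference between the genotypes ran in opposite directions in the sexes, -5.00 in the female pair and 1.32 in the male pair. Each pair is 1 array against 1, so the difference between the sexes was not tested.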

How the results depend on the processing

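Alternatives changed the scaling (quantile, array medians, hybridization controls), a pseudocount of 16, the probe set choice, the variance trend, the terms of the fit and the arrays included. Genes called for Ncstn KO against WT numbered 3 after quantile normalization, 62 after median centring and 2 among the 9096 genes above the median level, where Gp5, Gp1bb and Ppbp were not fitted. In each of these settings 1 platelet gene was among them, Selp, against 0 genes in the main analysis; since its p in this contrast chose it, this describes the settings and is no test of Selp. For females against males 4 genes became 58 after median centring, 2 above the median level and 0 without a variance trend, and no platelet gene was called. Why these counts moved was not tested, except that fewer genes were adjusted over above the median level. Leaving out 1 array gave 0 to 27 genes called, 0 to 1 platelet genes (Selp, when either Ncstn KO array was left out; the spread then comes from the WT pair alone, and the lone Ncstn KO array is assumed to vary like it), 6 to 8 genes without overlap and a list median of 0.41 (without WT replicate 1) to 1.18 (without WT replicate 2). Of all genes, 32% (without WT replicate 1) to 48.9% (without Ncstn KO replicate 2) then lay above WT without overlap. With all arrays this share was 21.3%, so a rise in the count without overlap is not particular to the platelet genes. Leaving out 1 array also turned signs, over ranges of -3.81 to 0.13 for Ppbp, -0.16 to 1.27 for Gp1bb, -2.66 to 1.11 for Clec1b, -2.13 to 0.43 for Tubb1, -1.96 to 0.037 for Myl9, -1.15 to 0.55 for Alox12 and -0.31 to 0.84 for Gata1. The other platelet genes of the list kept their direction in every alternative run. With the replicate block 0 genes and 0 platelet genes were called and the list median stayed 0.78; same-numbered samples deviated against each other (r = -0.24), and the crossed pairing, chosen after seeing the data and equal to sex as a second term, called 0 genes and 0 platelet genes. The female against male fit could not be made with the replicate block or without 1 array, which leave no residual degrees of freedom.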
